A study of Mus musculus with 4 samples.

Results

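The kinetochore is the protein assembly on each centromere that holds a chromosome on the spindle during cell division, and the 35 mouse genes described here encode its layers, its microtubule couplers and part of its checkpoint. They were taken as a fixed list of gene symbols and were found on the array through the RefSeq accession that each probe carries in the scanner files. The list had 53 of the 56605 probes on the array, and 33 of the 35 genes had at least 1 probe bright enough to be tested. RNA of isolated pancreatic islets was measured on 4 single-colour Agilent arrays. The Rb-deficient group was 2 Pdx1-Cre:Rbf/f mice, in which Cre recombinase deletes a floxed gene for the retinoblastoma protein (Rb), and the wild type group was 2 Pdx1-Cre mice, which carry the same Cre transgene. Each array held RNA of 1 mouse, and the ages and sexes of the mice are not given in the labels. The Pdx1 promoter is active in the embryonic pancreatic epithelium, so Cre acts in endocrine, acinar and ductal cells, whereas islet macrophages, endothelium and fibroblasts come from other lineages. The design addresses which transcripts differ between islets with and without Rb.

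Centromeric chromatin is marked by CENP-A, a variant of histone H3. A constitutive network of inner proteins (CCAN) sits on it throughout the cell cycle, and in mitosis this network recruits the MIS12 and NDC80 complexes, of which NDC80 binds microtubules directly. Unattached kinetochores hold the spindle checkpoint proteins Mad1, Mad2 and Bub3 and delay anaphase. Rb restrains E2F transcription factors, and many genes of DNA replication and mitosis are E2F targets or are repressed in resting cells by the DREAM complex. Adult beta cells divide rarely, so transcripts of mitotic genes are normally scarce in islets.

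Signals are given as log2 of the deposited processed intensity minus the log2 of the 75th percentile of that array, so 0 is the 75th percentile and a negative value is a dimmer probe. A difference is Rb-deficient minus wild type on this log2 scale. A probe was tested where both arrays of one group, or of both groups, detected it well above background, which kept 33845 probes of 26378 genes, and 46 of the 53 centromere and kinetochore probes. Where a gene is counted once, its brightest tested probe stands for it. Probes without a gene symbol were counted under the identifier that each carries. The shares over all genes tested therefore also cover identifiers that have no gene symbol. The brightness of a probe depends on the probe as well as on the transcript, so levels are compared only between arrays and never between genes.

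The arrays did not all look alike. The share of probes well above background was 59.9% and 59.1% on the Rb-deficient arrays, against 76.5% and 59.4% on the wild type arrays, and wild type array 1 was thus the one that stood apart. Y-linked genes (Ddx3y, Eif2s3y, Kdm5d and Uty) were well above background on that array alone, and Xist had signals of -0.65 and -1.35 in Rb-deficient islets, against -7.40 and -0.84 in wild type islets. Results that rest on wild type array 1 are therefore also given without it. Rb1 itself had signals of -0.48 and -0.90 in Rb-deficient islets, against 0.28 and 0.86 in wild type islets, with a difference of -1.26 ± 0.31 (SE, limma, adjusted p = 0.744). A second Rb1 probe differed by -1.56, and on both probes the groups did not overlap. The position of these probes relative to the floxed part of Rb1 is not given in the sources used here, so they may check nothing about the deletion. The insulin genes and Gcg, which mark beta and alpha cells, were among the bright probes on every array: Ins2 had signals of 10.40 and 9.89 in Rb-deficient islets, against 10.45 and 10.27 in wild type islets.

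No probe of any gene passed an adjusted p of 0.05 in the limma fit (0% of 33845 probes, lowest adjusted p = 0.170), and the adjusted p of the centromere and kinetochore probes lay between 0.413 and 0.998. The differences below are therefore descriptions of 2 mice against 2. At an unadjusted p under 0.05, 9 of the 46 probes (19.6%) were higher in Rb-deficient islets, where 1.43% of all probes were, and 1 of 46 (2.17%, a probe of Nsl1) was lower, where 4.17% of all probes were. Those 9 probes belong to Cenpe, Cenpf, Cenpk (2 probes), Cenpm, Cenpu, Cenpw, Mad2l1 and Ska2. Of the 46 probes, 10 were tested because of the Rb-deficient arrays alone, and such probes tend to be higher by how they were kept. Among them were those of Cenpu and Ska2, which neither wild type array detected well above background. Another 2, a probe of Dsn1 and the lower probe of Nsl1, were tested because of the wild type arrays alone. Neither Rb-deficient array detected them well above background, and such probes tend to be lower by how they were kept. Among the 34 probes well above background on all 4 arrays, 5 (of Cenpe, Cenpk, Cenpw and Mad2l1) were higher at an unadjusted p under 0.05 in limma, 14.7%, against 1.49% of all such probes. With 2 mice in each group, an exact two-sided permutation test of one gene cannot give a p below 0.333.

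Of the 33 measured genes, 27 (81.8%) had a higher mean signal in Rb-deficient islets, where 41.9% of all genes did, and with arrays scaled to their median 31 did, where 75.3% of all genes did. In 14 genes (42.4%) both Rb-deficient arrays lay above both wild type arrays, against 15.3% of all genes. These were Bub3, Cenpc1, Cenpe, Cenpj, Cenpk, Cenpm, Cenpn, Cenpq, Cenpu, Cenpw, Mad2l1, Mis12, Nuf2 and Ska2. Dsn1 and Spc25 were the 2 genes (6.06%) with both Rb-deficient arrays below both wild type arrays, against 20.7% of all genes, although Dsn1 was higher under quantile normalization and under scaling to the array median. The mean was at least 2-fold higher in 9 genes (27.3%), against 1.7% of all genes, and at least 2-fold lower in 0 of 33 genes (8.03% of all genes were). The 9 genes were Cenpa, Cenpe, Cenph, Cenpk, Cenpm, Cenpu, Cenpw, Nsl1 and Nuf2, of which Nsl1 counts by its brightest probe alone and has another probe that was lower. A background correction by normexp left 1 gene, Cenpe, at least 2-fold higher, where 0.485% of all genes were. The other 8 then differed by 0.26 to 0.77. That correction adds an offset of 50 to every intensity, which narrows the log2 differences of dim probes by construction. Among the 25 genes well above background on all 4 arrays, 20 had a higher mean, against 44.5% of all such genes. In 10 of the 25 both Rb-deficient arrays lay above both wild type arrays, against 16.2%, and 4 (Cenpa, Cenpe, Cenpk and Cenpw) were at least 2-fold higher, against 1.28%. The median difference was 0.39 over the 33 genes and -0.07 over all genes tested. These shares describe the arrays and are no test of the list.

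**Figure D1:**
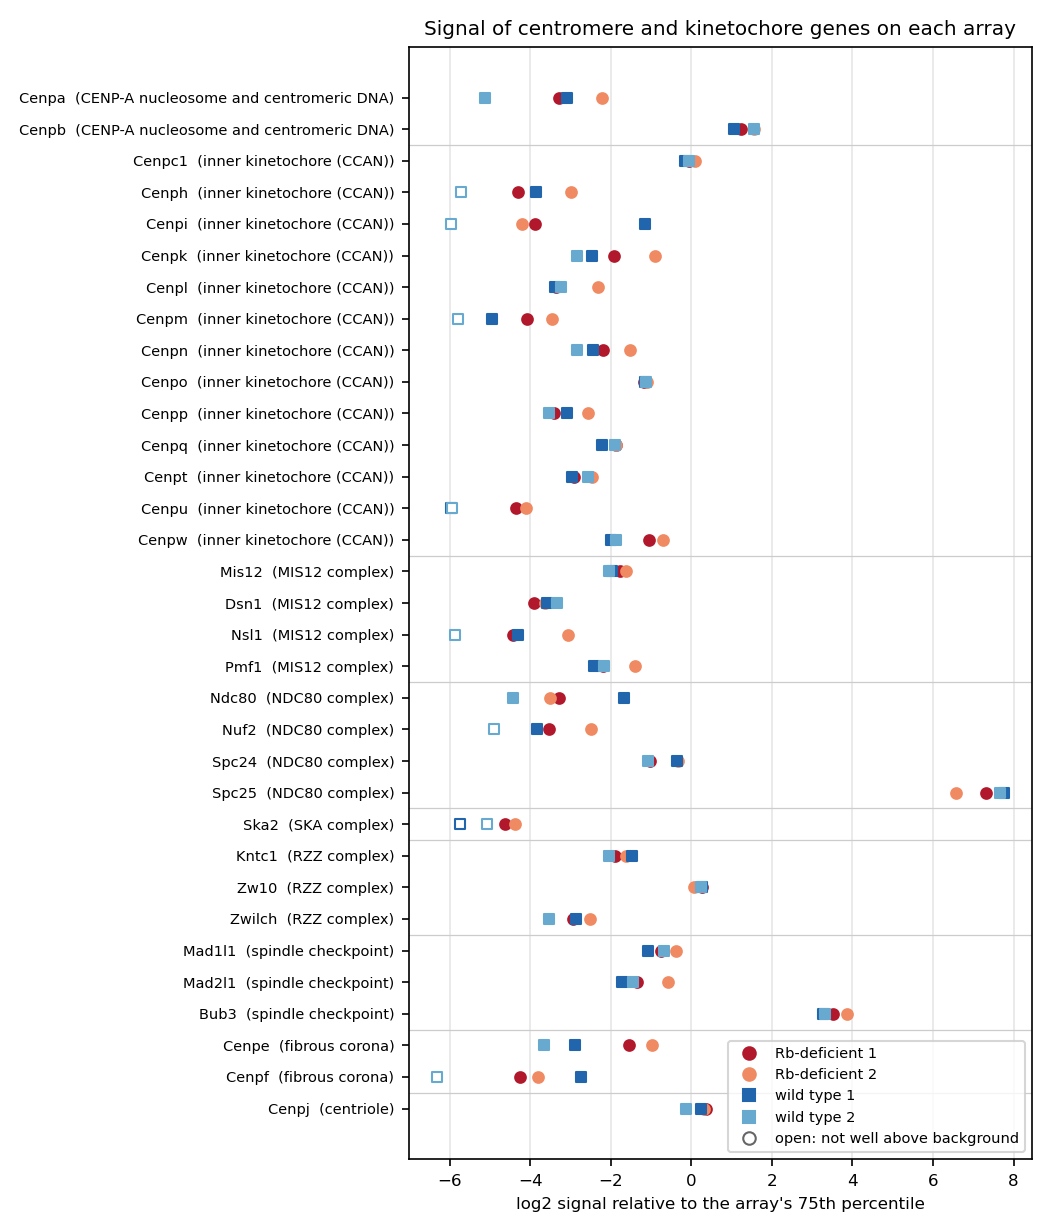
Log2 signal of the brightest tested probe of each of the 33 measured genes (rows, grouped by complex), relative to the 75th percentile of the array (horizontal axis); circles are the 2 Rb-deficient arrays, squares the 2 wild type arrays, and open symbols mark a signal that was not well above background. In 14 genes both circles lie to the right of both squares, and in Cenpi, Ndc80 and Cenpf wild type array 1 lies far to the right of wild type array 2.

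The shift was unequal between the Rb-deficient mice. Relative to the wild type mean, the median of the 33 genes lay 0.21 higher on Rb-deficient array 1 and 0.68 higher on Rb-deficient array 2, where the median of all genes lay at -0.02 and -0.09. Rb-deficient array 2 exceeded Rb-deficient array 1 in 28 of the 33 genes (84.9%), against 44.1% of all genes. With Rb-deficient array 2 left out, 3 of the 33 genes were at least 2-fold higher, where 1.48% of all genes were. With Rb-deficient array 1 left out, 11 were, where 3.41% of all genes were. Leaving out wild type array 1 gave 24 of 33 genes (72.7%) above the remaining wild type array in both Rb-deficient mice, where 27.9% of all genes were, a share that is larger with 1 array fewer to exceed. The median difference was then 0.49. In RNA of whole islets, a larger share of dividing cells and more RNA per cell cannot be told apart.

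**Figure D2:**
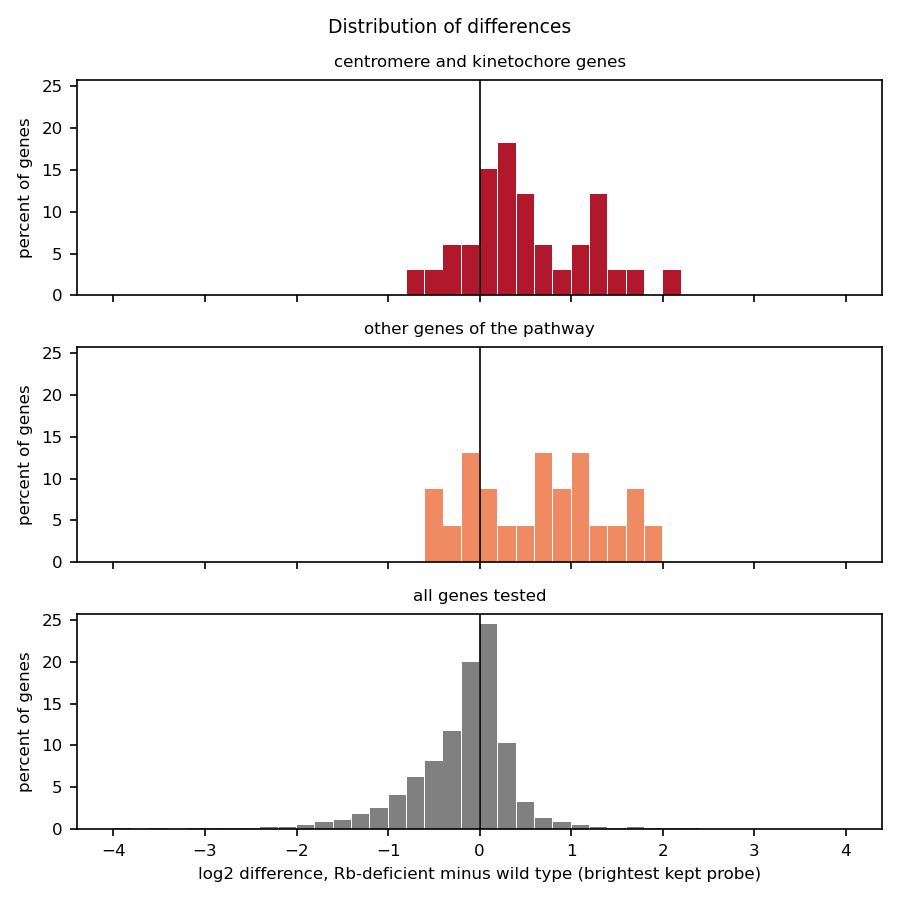
Share of genes (vertical axis, percent) by log2 difference, Rb-deficient minus wild type (horizontal axis, bins of 0.2, with values beyond the axis in the outermost bins), for the 33 centromere and kinetochore genes, 23 other genes of the pathway and all 26378 genes tested. The medians are 0.39, 0.69 and -0.07.

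The size of a difference varied with the brightness of the probe. Among the 16 genes dimmer than the members' median signal of -2.25, the median difference was 0.70 and 7 were at least 2-fold higher. In the 17 brighter genes the median was 0.29 and 2 were at least 2-fold higher. All genes tested, split at the same signal, had medians of -0.43 below it and 0.02 at or above it. Of all genes, 2.74% below it and 1.10% at or above it were at least 2-fold higher. Counting every gene with no filter on dim probes, 28 of 35 were higher and the median was 0.33. Over all 45611 genes, identifiers without a symbol included, the values were 28.5% and -0.24. Several dim genes had 1 or both wild type arrays near background, where a log2 difference is imprecise.

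**Figure D3:**
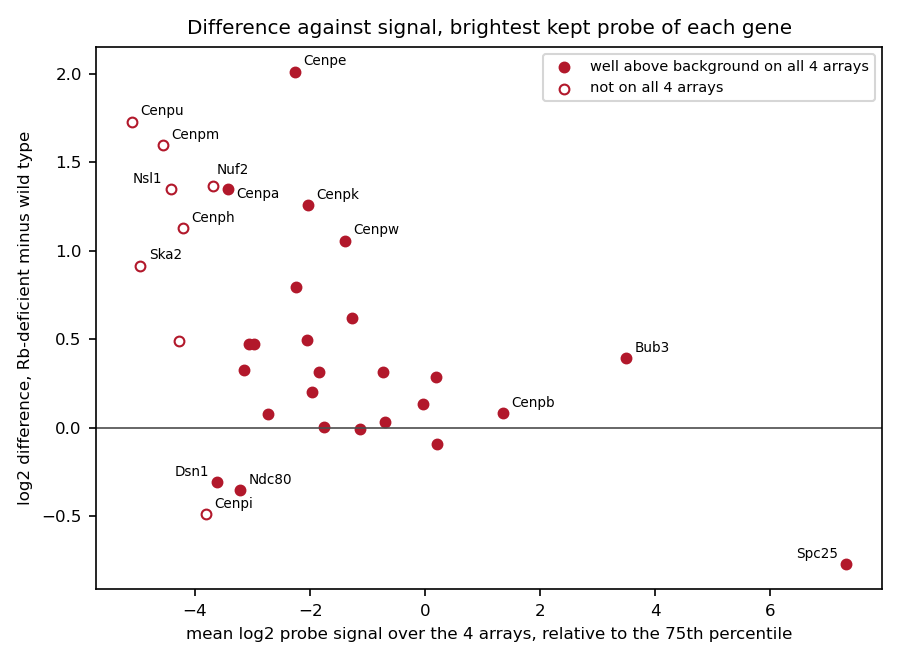
Log2 difference, Rb-deficient minus wild type (vertical axis), against the mean log2 signal of the probe over the 4 arrays (horizontal axis), 1 point for each of the 33 genes; filled points were well above background on all 4 arrays (25 genes). The differences of 1 or more lie at signals below -1, and the brightest probe, of Spc25, is the lowest point.

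Promoter windows of RefSeq (build GRCm38.p6, 250 bases before to 50 after the start site) were available for 31 of the 35 genes. They are shown for a selection of the genes at least 2-fold higher and for Spc25, the bright gene that was lower. Windows of Cenph, Cenpk and Cenpu, which were also at least 2-fold higher, are not shown. The motifs searched on both strands were the cell cycle homology region CHR (TTTGAA or its variant TTCGAA), which the MuvB core of DREAM binds, the CCAAT box (CCAAT), which NF-Y binds, and an E2F core in 4 forms (TTCCCGC and TTGGCGC, with TTCGCGC and TTGCCGC as variants). Capitals below mark each match, read on the strand of the gene, so ATTGG is a CCAAT box on the other strand and TTCAAA a CHR on the other strand. Windows of Cenpa (chr5:30666636-30666935, plus strand), Cenpe (chr3:135212313-135212612, plus strand) and Cenpm (chr15:82244287-82244586, minus strand) are followed by those of Cenpw (chr10:30200491-30200790, minus strand), Nuf2 (chr1:169531415-169531714, minus strand) and Spc25 (chr2:69206164-69206463, minus strand).
Cenpa: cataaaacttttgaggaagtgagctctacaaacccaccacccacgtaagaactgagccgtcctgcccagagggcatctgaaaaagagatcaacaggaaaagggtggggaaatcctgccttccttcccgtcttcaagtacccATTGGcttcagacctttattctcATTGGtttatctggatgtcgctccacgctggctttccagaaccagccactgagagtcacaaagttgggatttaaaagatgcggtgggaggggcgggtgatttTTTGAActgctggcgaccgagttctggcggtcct
Cenpe: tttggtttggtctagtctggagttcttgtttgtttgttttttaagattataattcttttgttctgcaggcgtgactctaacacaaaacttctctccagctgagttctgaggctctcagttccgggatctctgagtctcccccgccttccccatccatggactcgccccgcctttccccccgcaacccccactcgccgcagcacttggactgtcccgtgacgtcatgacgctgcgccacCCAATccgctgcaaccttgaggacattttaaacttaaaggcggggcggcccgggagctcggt
Cenpm: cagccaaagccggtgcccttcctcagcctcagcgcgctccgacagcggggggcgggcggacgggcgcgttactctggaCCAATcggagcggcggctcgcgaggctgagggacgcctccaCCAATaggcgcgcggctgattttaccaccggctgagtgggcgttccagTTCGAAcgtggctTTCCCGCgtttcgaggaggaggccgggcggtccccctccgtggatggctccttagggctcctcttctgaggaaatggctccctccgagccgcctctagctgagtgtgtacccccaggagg
Cenpw: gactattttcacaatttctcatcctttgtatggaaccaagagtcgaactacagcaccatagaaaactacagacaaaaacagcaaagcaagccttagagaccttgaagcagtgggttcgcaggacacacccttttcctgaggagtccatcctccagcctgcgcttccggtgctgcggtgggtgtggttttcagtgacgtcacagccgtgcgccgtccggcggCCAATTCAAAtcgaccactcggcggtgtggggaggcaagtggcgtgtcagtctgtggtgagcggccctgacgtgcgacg
Nuf2: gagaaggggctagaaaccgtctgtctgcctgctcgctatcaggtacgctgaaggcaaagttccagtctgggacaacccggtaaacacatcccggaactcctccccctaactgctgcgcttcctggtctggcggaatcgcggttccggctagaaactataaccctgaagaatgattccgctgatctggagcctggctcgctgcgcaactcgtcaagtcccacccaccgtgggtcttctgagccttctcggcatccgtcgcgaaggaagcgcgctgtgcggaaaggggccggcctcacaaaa
Spc25: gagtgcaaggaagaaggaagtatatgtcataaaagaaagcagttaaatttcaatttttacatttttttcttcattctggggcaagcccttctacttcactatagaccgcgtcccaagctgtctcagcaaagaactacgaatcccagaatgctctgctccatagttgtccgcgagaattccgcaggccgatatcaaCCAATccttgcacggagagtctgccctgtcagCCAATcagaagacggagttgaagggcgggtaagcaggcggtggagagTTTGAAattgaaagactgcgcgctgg

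A CHR was found in 13 of the 31 genes (41.9%), against 21.7% of all 27025 genes with a window. The CCAAT box was found in 19 (61.3%), against 41.1% of all genes, and the E2F core in 11 (35.5%), against 10.9%. Over the 17492 protein-coding genes with a window, the shares were 20.2% for the CHR, 42.3% for the CCAAT box and 13.7% for the E2F core. Short motifs such as these recur by their length alone, and a match is no evidence of binding. Of the 8 genes that were at least 2-fold higher and had a window, 7 held a CCAAT box, 3 a CHR and 3 an E2F core. Among the 22 other measured genes with a window, 12 held a CCAAT box, 9 a CHR and 8 an E2F core. Cenpm held all 3 motifs. In Cenpw the CCAAT box and the CHR overlap (printed as one run of capitals), Nuf2 held no match in its window, and Spc25 held 2 CCAAT boxes and a CHR.

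CENP-A and the DNA-binding CENP-B differed in size. Cenpa had signals of -3.28 and -2.23 in Rb-deficient islets, against -3.09 and -5.12 in wild type islets. The groups overlapped, since Rb-deficient array 1 lay below wild type array 1, and the difference of 1.35 ± 0.84 (SE, limma, adjusted p = 0.863) rests on wild type array 2: it was 0.33 with that array left out. Cenpb, whose protein binds the minor satellite repeat of mouse centromeres, differed by 0.08 ± 0.27 (SE), and its groups overlapped.

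The inner kinetochore network had 13 members, with a median difference of 0.47, and 12 of the 13 were brighter on Rb-deficient array 2 than on Rb-deficient array 1. Cenpk had signals of -1.91 and -0.89 in Rb-deficient islets, against -2.47 and -2.84 in wild type islets. Its difference was 1.26 ± 0.42 (SE, limma, adjusted p = 0.863), and its other tested probes differed by 1.41 and 0.67. CENP-K works in one subcomplex with CENP-H, CENP-I and CENP-M. Cenpm had signals of -4.08 and -3.45 in Rb-deficient islets, against -4.94 and -5.78 in wild type islets. Both Rb-deficient arrays were above both wild type arrays, of which array 2 was not well above background, and the difference was 1.60 ± 0.41 (SE, limma, adjusted p = 0.782), or 0.30 after normexp correction.

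Cenph had signals of -4.31 and -2.99 in Rb-deficient islets, against -3.85 and -5.71 in wild type islets. The groups overlapped, wild type array 2 was not well above background, and the difference of 1.13 ± 0.84 (SE) was 0.20 without that array and 2.06 without wild type array 1. Cenpi, which was singled out after its values were seen, had signals of -3.89 and -4.20 in Rb-deficient islets, against -1.15 and -5.97 in wild type islets. Its Rb-deficient arrays thus lay between wild type arrays that were the farthest apart of any of the 33 genes, and the difference of -0.49 ± 1.74 (SE) became 1.92 without wild type array 1. The subcomplex of CENP-H, CENP-I, CENP-K and CENP-M therefore held 3 genes with higher means and 1 with a lower mean that depends on 1 array.

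Cenpw, whose protein has a histone fold and pairs with CENP-T at centromeric DNA, had signals of -1.05 and -0.69 in Rb-deficient islets, against -1.99 and -1.87 in wild type islets. Both wild type arrays were below both Rb-deficient arrays, and the gap between the groups was wider than the gap within either. The difference was 1.06 ± 0.22 (SE, limma, adjusted p = 0.655), a 2.08-fold higher mean, and a second probe differed by 0.57. Cenpt, the partner, differed by 0.08 ± 0.27 (SE), and its groups overlapped. Cenpn, which reads the CENP-A nucleosome together with Cenpl, differed by 0.80 ± 0.33 (SE) with both Rb-deficient arrays above both wild type arrays, and Cenpl by 0.47 ± 0.42 (SE) with overlapping groups.

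Cenpu had probes that disagreed on direction. Its tested probe, A_55_P1988373, had signals of -4.37 and -4.09 in Rb-deficient islets, against -5.98 and -5.94 in wild type islets. Neither wild type array was well above background on it, so the group mean was at least 1.99-fold higher in Rb-deficient islets (limma, adjusted p = 0.413). The probe was tested because of the Rb-deficient arrays alone, its wild type signals are those of background, and the gene counts as 2-fold higher by its measured difference of 1.73 and not by its bound. After normexp correction the difference was 0.26. The other probe, A_52_P415931, had signals of -5.46 and -4.99 in Rb-deficient islets, against -3.33 and -5.42 in wild type islets, and was not tested because it was well above background on 1 array of each group. Its difference of -0.85 rests on wild type array 1 and was 0.19 without that array. CENP-U belongs with CENP-O, CENP-P and CENP-Q in a subcomplex that anchors the kinase Plk1 at the centromere.

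Of that subcomplex, the listed genes Cenpo, Cenpp and Cenpq differed little. Cenpp differed by 0.33 ± 0.39 (SE) with overlapping groups. Cenpo differed by -0.0046 ± 0.17 (SE), a sign that turned under quantile normalization and array median scaling, and its second probe by -0.39. Cenpq had signals of -1.86 and -1.86 in Rb-deficient islets, against -2.23 and -1.90 in wild type islets, on its brightest probe. A second Cenpq probe had signals of -3.44 and -3.24 in Rb-deficient islets, against -3.06 and -3.56 in wild type islets. The probes differed by 0.20 ± 0.21 and -0.03 ± 0.26 (SE), so their opposite signs lie within the error of either. Cenpc1, the CENP-C that links CENP-A nucleosomes to the MIS12 complex, differed by 0.14 ± 0.18 (SE), with the Rb-deficient arrays narrowly above both wild type arrays.

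**Figure D4:**
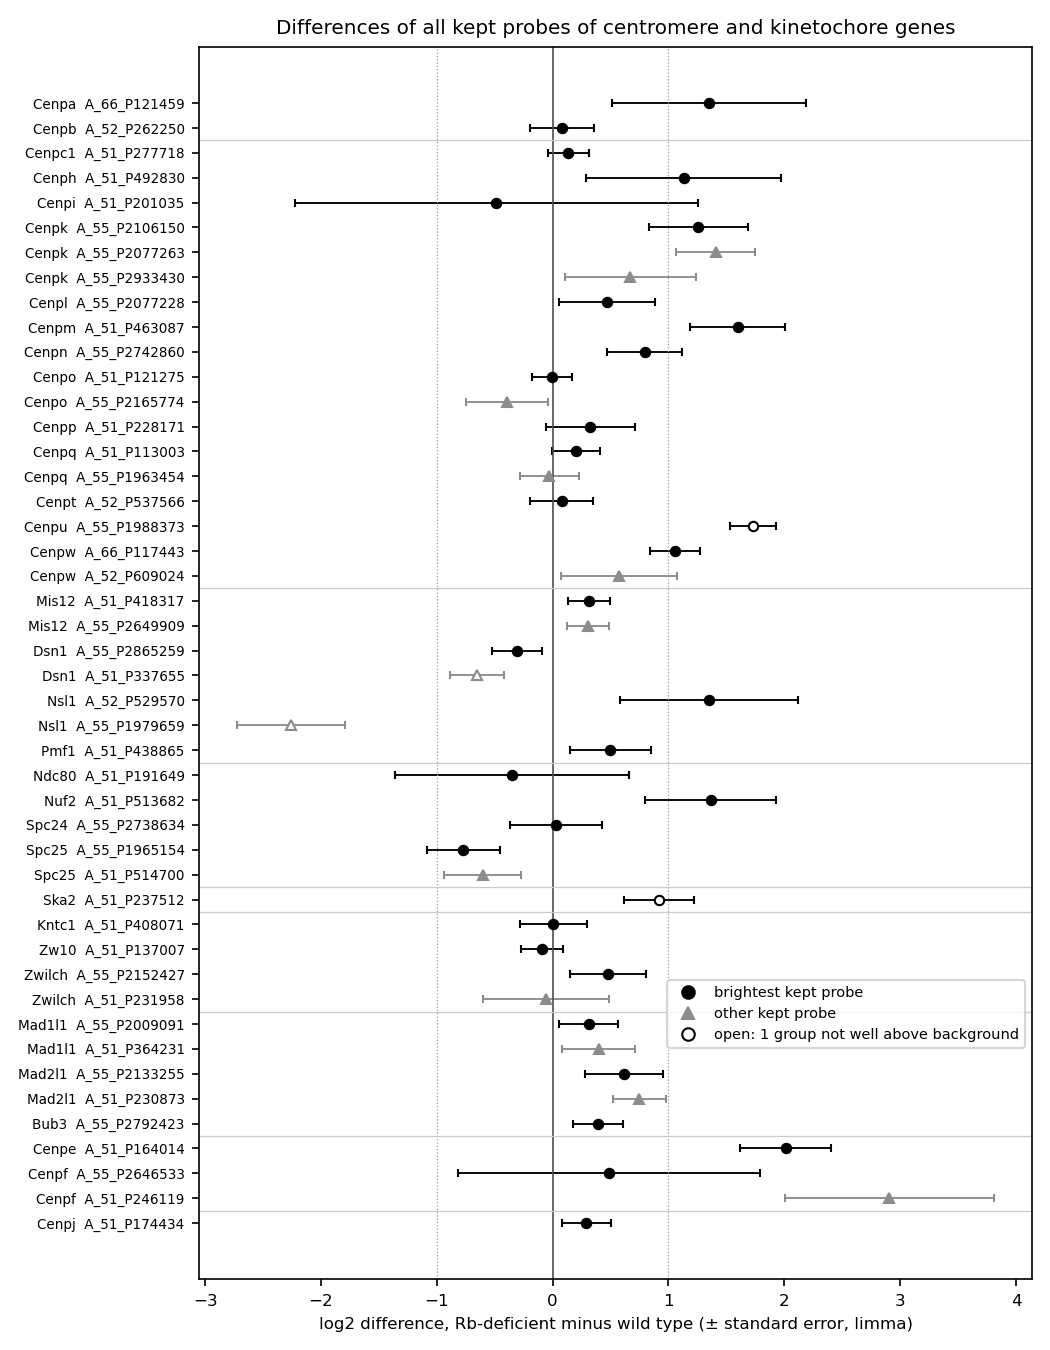
Log2 difference, Rb-deficient minus wild type, with its limma standard error (horizontal axis) for each of the 46 tested probes (rows, in the order of the complexes); circles are the brightest tested probe of a gene, triangles its other probes, and open symbols probes that neither array of 1 group detected well above background. Of the 46 probes, 34 lie to the right of 0 and 12 to the left, with dotted lines at a difference of -1 and 1 (2-fold).

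The MIS12 complex joins the inner network to NDC80, and its 4 genes had a median difference of 0.41. Mis12 differed by 0.32 ± 0.18 (SE) and 0.31 ± 0.18 (SE) on its 2 probes, with the Rb-deficient arrays above both wild type arrays on both. Pmf1 differed by 0.50 ± 0.35 (SE), with overlapping groups. Dsn1, the subunit through which Aurora B controls binding to CENP-C, was the exception, with signals of -3.92 and -3.62 in Rb-deficient islets, against -3.58 and -3.35 in wild type islets. Its difference of -0.31 ± 0.22 (SE) was 0.34 under quantile normalization and 0.13 under array median scaling. A second Dsn1 probe was not well above background in either Rb-deficient mouse, and its mean was at least 1.54-fold lower there. That probe was tested because of the wild type arrays alone.

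Nsl1 had probes that went opposite ways. On the brightest, A_52_P529570, its signals were -4.44 and -3.05 in Rb-deficient islets, against -4.31 and -5.87 in wild type islets. The groups overlapped, wild type array 2 was not well above background, and the difference was 1.35 ± 0.77 (SE, limma, adjusted p = 0.863). On A_55_P1979659 its signals were -6.44 and -7.63 in Rb-deficient islets, against -4.68 and -4.87 in wild type islets. Neither Rb-deficient array was well above background there, so that probe was tested because of the wild type arrays alone. Its mean was at least 1.50-fold lower in Rb-deficient islets, and the measured difference was -2.26 ± 0.46 (SE, limma, adjusted p = 0.655). The remaining Nsl1 probe was not well above background on any array. The mean of the 2 tested probes differed by -0.46, so no direction is given for Nsl1 as a gene. Which transcripts of Nsl1 each probe reads was not analysed here.

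The NDC80 complex, a rod with microtubule-binding heads on Ndc80 and Nuf2 and a kinetochore-anchored end on Spc24 and Spc25, had a median difference of -0.16 over its 4 genes, which was 0.28 with arrays scaled to their median. Nuf2 had signals of -3.54 and -2.48 in Rb-deficient islets, against -3.84 and -4.91 in wild type islets. Both Rb-deficient arrays lay above both wild type arrays, of which array 2 was not well above background, and the difference was 1.36 ± 0.56 (SE, limma, adjusted p = 0.863), or 0.42 after normexp correction. Ndc80, the partner of Nuf2, had signals of -3.28 and -3.52 in Rb-deficient islets, against -1.67 and -4.42 in wild type islets. Its difference of -0.35 ± 1.01 (SE) was 1.03 without wild type array 1 and 0.09 under array median scaling, and the same array stood high for Cenpi. Spc24 differed by 0.03 ± 0.40 (SE), with groups that overlapped.

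Spc25, like Dsn1, had lower signals in Rb-deficient islets on both of its probes, and was singled out after its values were seen. It had signals of 7.30 and 6.56 in Rb-deficient islets, against 7.75 and 7.66 in wild type islets. A second probe had signals of 4.06 and 3.26 in Rb-deficient islets, against 4.24 and 4.29 in wild type islets. On both probes the Rb-deficient arrays were below both wild type arrays, Rb-deficient array 2 lay lowest, and the differences were -0.77 ± 0.32 and -0.61 ± 0.34 (SE, limma, adjusted p = 0.863 for each). In the RefSeq table Spc25 is the coding gene next to G6pc2 and lies on the opposite strand. G6pc2, a glucose-6-phosphatase subunit of beta cells, had signals of 8.75 and 7.92 in Rb-deficient islets, against 8.75 and 8.60 in wild type islets. A second G6pc2 probe had signals of 6.64 and 5.65 in Rb-deficient islets, against 6.42 and 6.47 in wild type islets. Its groups overlapped on both probes, unlike those of Spc25. Both G6pc2 probes were lowest on Rb-deficient array 2, and so were Ins1, Ins2 and Gcg. Whether the Spc25 probes read transcripts of that neighbour was not tested.

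The SKA complex couples NDC80 to shortening microtubules and was near the detection limit. Ska2 had signals of -4.62 and -4.37 in Rb-deficient islets, against -5.74 and -5.08 in wild type islets. Neither wild type array was well above background, and the mean was at least 1.57-fold higher in Rb-deficient islets, with a measured difference of 0.92 ± 0.30 (SE, limma, adjusted p = 0.863) that was 0.060 after normexp correction. Ska1 had signals of -5.73 and -3.93 in Rb-deficient islets, against -5.32 and -7.19 in wild type islets, and was not tested, being well above background on Rb-deficient array 2 alone. Ska3 was not tested either: one of its probes was well above background only on Rb-deficient array 2 and the other only on wild type array 1.

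The RZZ complex brings dynein and the Mad1 and Mad2 proteins to unattached kinetochores, and its 3 genes had a median difference of 0.0055, which was -0.03 after normexp correction. Kntc1, the ROD subunit, differed by 0.0055 ± 0.29 (SE), and Zw10, which also works in membrane traffic outside mitosis, by -0.09 ± 0.18 (SE), a sign that turned under array median scaling. Zwilch had signals of -2.94 and -2.52 in Rb-deficient islets, against -2.87 and -3.54 in wild type islets. A second Zwilch probe had signals of -4.44 and -4.15 in Rb-deficient islets, against -3.54 and -4.95 in wild type islets. Groups overlapped on both, and the differences of 0.48 ± 0.33 and -0.05 ± 0.54 (SE) do not separate in sign beyond their errors. The remaining Zwilch probe was not well above background on any array.

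The 3 checkpoint genes had a median difference of 0.39, and each was brighter on Rb-deficient array 2 than on any other array. Mad2l1, the Mad2 that inhibits the anaphase-promoting complex, had signals of -1.35 and -0.58 in Rb-deficient islets, against -1.71 and -1.46 in wild type islets. Its 2 probes differed by 0.62 ± 0.33 and 0.75 ± 0.23 (SE, limma, adjusted p = 0.863 and 0.819), with no overlap of the groups on either. Bub3, which carries Bub1 to the kinetochore, had signals of 3.51 and 3.87 in Rb-deficient islets, against 3.26 and 3.33 in wild type islets, a difference of 0.39 ± 0.21 (SE). Mad1l1, the kinetochore anchor of Mad2, differed by 0.31 ± 0.26 and 0.40 ± 0.31 (SE) on its 2 probes, with overlapping groups.

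The fibrous corona, the outermost layer, held the gene with the highest difference among the brightest probes. Cenpe, a kinesin that carries chromosomes along microtubules, had signals of -1.56 and -0.97 in Rb-deficient islets, against -2.88 and -3.67 in wild type islets. All 4 arrays were well above background, the groups did not overlap, and the mean was 4.03-fold higher in Rb-deficient islets, a difference of 2.01 ± 0.39 (SE, limma, adjusted p = 0.628). With any 1 array left out it stayed between 1.62 and 2.41, and after normexp correction it was 1.13. Cenpf, a large coiled-coil protein of the corona, had 2 probes that differed in size. On A_51_P246119 its signals were -3.06 and -2.60 in Rb-deficient islets, against -4.52 and -6.95 in wild type islets, a difference of 2.91 ± 0.90 (SE, limma, adjusted p = 0.837). On A_55_P2646533 its signals were -4.25 and -3.81 in Rb-deficient islets, against -2.73 and -6.31 in wild type islets. There wild type array 1 was above both Rb-deficient arrays, and the difference of 0.49 ± 1.31 (SE) was 2.28 without that array. Wild type array 2 was not well above background on either probe.

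Cenpj carries a centromere name, but its protein is a centriole assembly factor. It had signals of 0.37 and 0.31 in Rb-deficient islets, against 0.23 and -0.13 in wild type islets. The difference was 0.29 ± 0.21 (SE, limma, adjusted p = 0.863), with both Rb-deficient arrays above both wild type arrays.

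**Figure D5:**
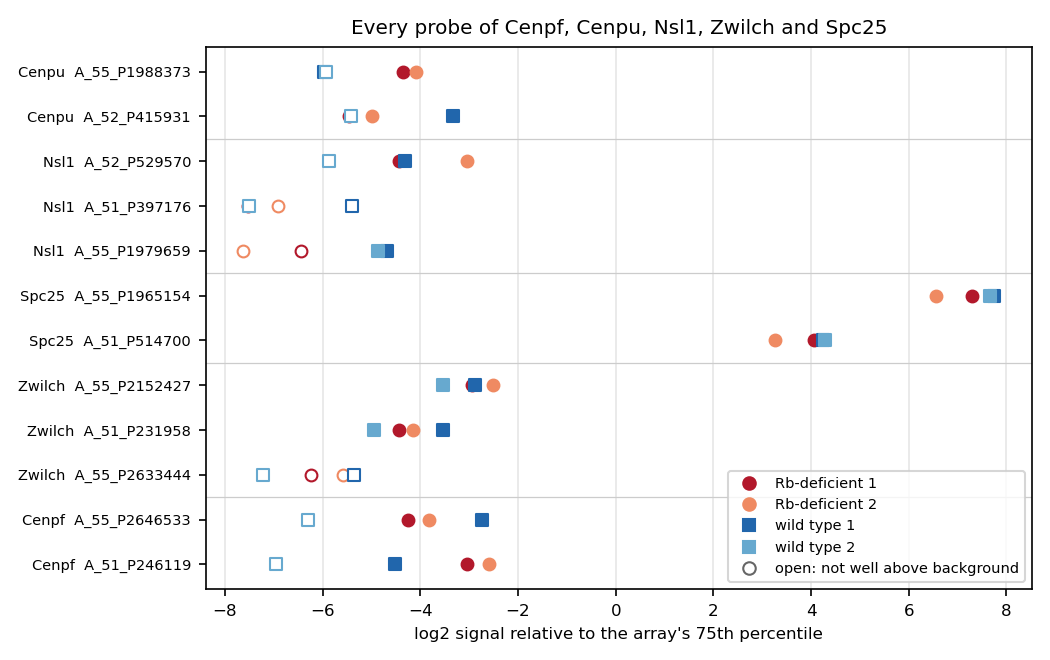
Log2 signal relative to the 75th percentile of the array (horizontal axis) for every probe of Cenpu, Nsl1, Spc25, Zwilch and Cenpf (rows); circles are Rb-deficient arrays, squares wild type arrays, and open symbols were not well above background. Both Spc25 probes show Rb-deficient array 2 lowest, and each of these genes has at least 1 probe with wild type array 1 highest.

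Of the 33 genes with a tested probe, 12 had several. Probes of 9 of them gave differences of one sign, and in Cenpq, Nsl1 and Zwilch of opposite signs. The span between probes of a gene reached 3.61 for Nsl1 and 2.42 for Cenpf, and was 0.74 or less for the others.

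With signals scaled to the median of each array and not to its 75th percentile, 7 of the 46 probes (15.2%) passed an adjusted p of 0.05 in limma, where 1.69% of all probes did (572 of 33845). Probes of Cenpe, Cenpf, Cenpk, Cenpm, Cenpu and Nuf2 were higher and the A_55_P1979659 probe of Nsl1 lower. That scaling moved the median of all genes by 0.44, to 0.37, and limma then gave every probe the same standard error of 0.54. The spread of a probe's own signals between mice thus did not enter its p-value in that fit. Since the scaling adds one constant to every difference, the members' median relative to all genes, 0.46, is the same under either scaling by construction.

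A list of 31 other genes of the pathway had 23 measured genes. Its roles were CENP-A loading, inner and outer kinetochore, spindle checkpoint, chromosomal passenger complex, cohesin protection and kinetochore microtubules. No probe passed the adjusted p. At an unadjusted p under 0.05 in limma, 11 of the list's 35 tested probes (31.4%) were higher, where 1.43% of all probes were. The mean was higher in 17 genes (73.9%), against 41.9% of all genes. Both Rb-deficient arrays were above both wild type arrays in 14 (60.9%), against 15.3%. At least 2-fold higher were 8 (34.8%), against 1.7%, and the median difference was 0.69. One gene (4.35%), Knstrn, had both Rb-deficient arrays below both wild type arrays on its brightest probe, against 20.7% of all genes. A second Knstrn probe went the other way by 1.74. Hjurp, Oip5, Bub1b, Ttk, Spdl1, Haspin, Kif2c and Kif18a had no probe that could be tested.

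The chromosomal passenger subunits Birc5 (survivin) and Cdca8 (borealin) led that list. Birc5 had signals of -0.89 and -0.21 in Rb-deficient islets, against -1.88 and -2.99 in wild type islets, a difference of 1.89 ± 0.50 (SE, limma, adjusted p = 0.782). Cdca8 had signals of -2.16 and -1.07 in Rb-deficient islets, against -3.19 and -3.48 in wild type islets, a difference of 1.72 ± 0.44 (SE), while its second probe differed by 0.0023. The checkpoint kinase Bub1 differed by 1.69 ± 0.74 (SE), at least 1.55-fold higher, with wild type arrays that were not well above background, and Cdc20, the activator that the checkpoint inhibits, differed by 1.50 ± 0.43 (SE). Spag5, a spindle protein also called astrin, differed by 1.31 ± 0.70 (SE), with wild type array 2 not well above background. Its other probes went the other way, by -1.49 and -0.895. They were not tested, being well above background on wild type array 1 alone. The kinase Plk1 differed by 1.18 ± 0.41 (SE). Cenps, a histone-fold protein of the inner network, differed by 1.03 ± 0.51 (SE). In each of these genes, on the brightest tested probe, both Rb-deficient arrays were above both wild type arrays.

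Markers of proliferation and of cell types in an islet preparation also differed between the arrays. For comparison, 41.9% of all genes tested were higher, 54.8% under quantile normalization and 75.3% with arrays scaled to their median. All 6 general proliferation genes (Mki67, Top2a, Pcna, Mcm2, Tyms and Rrm2) had both Rb-deficient arrays above both wild type arrays, against 15.3% of all genes. Their median difference was 1.37, with medians of 0.98 and 1.76 above the wild type mean on Rb-deficient arrays 1 and 2. Of 14 macrophage and dendritic markers 13 were higher, with a median difference of 0.80 and medians of 0.28 and 1.39 above the wild type mean on the Rb-deficient arrays. Their summed level, in multiples of the 75th percentile, was 51.4 and 45.9 in Rb-deficient islets, against 46.8 and 45.8 in wild type islets. All 12 acinar markers were lower (10 of 12 under quantile normalization and 9 of 12 with arrays scaled to their median), with a median difference of -0.86 and summed levels of 5766 and 3291 in Rb-deficient islets, against 8108 and 6504 in wild type islets.

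Beta cell markers were higher in 5 of 10 genes, and in 10 of 10 with arrays scaled to their median (medians 0.05 and 0.49), with summed levels of 3315 and 2336 in Rb-deficient islets, against 3446 and 3068 in wild type islets. Other endocrine markers were higher in 3 of 10 genes, and in 5 of 10 with arrays scaled to their median (medians -0.49 and -0.05, summed levels of 1487 and 1813 in Rb-deficient islets, against 1707 and 1889 in wild type islets). Ductal markers were higher in 2 of 8 genes, and in 4 of 8 with arrays scaled to their median (medians -0.49 and -0.05, summed levels of 13.4 and 17.4 in Rb-deficient islets, against 22.7 and 16.3 in wild type islets). Endothelial markers were higher in 8 of 9 genes (median 0.17, summed levels of 37.7 and 46.4 in Rb-deficient islets, against 36.5 and 36.7 in wild type islets).

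Lymphocyte markers were measured for 5 of 10 genes and higher in 4, with a median whose sign turned after normexp correction (0.01 and -0.01, summed levels of 8.51 and 8.47 in Rb-deficient islets, against 9.48 and 7.72 in wild type islets), with Cd8a not well above background on any array. Fibroblast and pericyte markers were measured for 9 of 10 genes and higher in 4, with a median whose sign turned under the 3 other scalings (-0.08, and 0.02 to 0.35, summed levels of 9.09 and 15.9 in Rb-deficient islets, against 9.55 and 11.0 in wild type islets), with Pdgfra not well above background on any array. The part of these cell types, and of the sexes of the mice, in the differences of the centromere and kinetochore genes was not tested.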

How the data were processed

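RNA of isolated islets of 4 mice was labelled with Cy3, per the labels' protocols, and hybridised to Agilent arrays on 1 slide with 1 scan. The authors deposited Feature Extraction output (version 12.0.3.1, per the submitters' processing notes and the file headers) with a processed signal intensity for each spot, background-subtracted by that program. Their deposited value table holds the same intensities times a constant for each array, linear and not centred, with column medians of 188.3 and 157.3 for Rb-deficient arrays and 220.1 and 180.7 for wild type arrays; the origin of the constants is not given in the sources used here. Probes were designed on mm9, per the file headers, and were named through their accessions in a RefSeq table of GRCm38.p6, which gave symbols to 32994 of 56605 probes (58.3%).

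Control spots and outlier spots (64 and 79 on Rb-deficient arrays, 87 and 93 on wild type arrays) were left out, spots of a probe were averaged, and log2 intensity minus the log2 75th percentile of the array was fitted with limma 3.58.1 in R 4.3.3, with no block. A probe was kept where most of its spots were well above background in both mice of one group or of both; no spot was saturated. P-values are two-sided with Benjamini-Hochberg adjustment over the 33845 probes kept; the fit was tested on simulated data with known changes. A bound ("at least") sets the brighter group's mean against the higher, on each array, of the dim signal and the lowest probe signal well above background (-5.26 and -5.46 on Rb-deficient arrays, -5.21 and -5.24 on wild type arrays). Replicates are separate mice. The number of arrays limits the precision. Members and gene lists were chosen with earlier results of these data known. Signals on every array were given for members whose brightest probe differed by 1 or more or whose probes had opposite signs, and for others where a result turned on them; of the other pathway list the 8 with the largest differences were to be named, of which 1 is not reported here.

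Alternatives were normexp background correction (offset 50, on the median spot signal, since the mean spot signal that had been planned was not among the columns), quantile normalization, scaling to the array median, no filter, a filter on all 4 arrays, 1 probe for each gene, the mean of a gene's probes, the deposited value table, an intensity trend, a replicate block and leaving out each array.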

Additional observations from a re-analysis of the deposited data

How the results depend on the processing

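Of the 33 gene differences, 15 kept their sign under all 14 alternatives, and 4 more under the 13 that could be run for them, the filter on all 4 arrays having removed their probes. Normexp correction left 1 gene at least 2-fold higher in Rb-deficient islets, where 0.485% of all genes were. It gave the other pathway genes a median difference of 0.18, and turned Kntc1 to -0.0258 and Cenpf to -0.0406. Quantile normalization moved the median of all genes by 0.10 and turned Dsn1 to 0.34 and Cenpo to 0.0683. Scaling to the array median gave 7 probes past the adjusted p (572 of all probes, 281 higher and 291 lower), a median difference of 0.83 over the members and of 1.12 over the other pathway genes, against 0.37 over all genes, and turned Ndc80 to 0.0864, Dsn1 to 0.13, Zw10 to 0.35 and Cenpo to 0.43. It adds one constant to every difference, and with it 75.3% of all genes were higher, where 41.9% were otherwise. Relative to all genes, the members' median was 0.24 with normexp and 0.69 with quantile normalization, where it was 0.46 with the 75th percentile. Without a filter a brighter probe stood for Cenpu, at -0.85. Requiring all 4 arrays to be well above background left 4 of 25 genes at least 2-fold higher, and the mean of the probes turned Nsl1 to -0.46. Apart from those named, the causes were not tested.

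With each array left out in turn, 14 to 25 genes had every Rb-deficient array above every wild type array (27.9% to 32.2% of all genes did), 3 to 11 were at least 2-fold higher (1.48% to 3.41% of all genes were), and the other pathway median was 0.43 to 0.78. Differences spanned 0 for Cenpo (-0.0514 to 0.0423), Cenpl (-0.0530 to 1.00), Kntc1 (-0.29 to 0.30), Zw10 (-0.19 to 0.0091), Cenpb (-0.17 to 0.33), Cenpp (-0.10 to 0.75), Spc24 (-0.33 to 0.39), Cenpt (-0.13 to 0.29), Ndc80 (-1.73 to 1.03), Cenpi (-2.89 to 1.92) and Cenpf (-1.30 to 2.28). In these fits 0 member probes passed the adjusted p. A lone array was assumed to vary like the other group.

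The labels do not say that equal replicate numbers share anything, and with 2 pairs the correlation of 0.28 between the differences of same-numbered arrays settles nothing. The fit with a replicate block called 0 member probes, with the median at 0.39, as without it. A slide block was not run, since all arrays lie on 1 slide. Signal over background limits 8 of the 33 genes, which were not well above background on all 4 arrays.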
